A study of Mus musculus with 7 samples.

Results

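The report covers p53 and 9 genes that p53 is known to switch on, in mouse CD8+ T cells exposed to leukemic or healthy small extracellular vesicles (sEVs). The 10 genes, Trp53, Cdkn1a, Mdm2, Ccng1, Zmat3, Phlda3, Sesn2, Trp53inp1, Bbc3 and Aen, were taken by symbol from a count table of 55367 genes. The list was drawn up with earlier results of these data known. All 10 were among the 12623 genes tested, which had 5 counts or more per library on average. Of the 10, 1 passed a false discovery rate (FDR) of 0.05 (10%, beside 8.96% of all tested genes). It was Trp53inp1, which rose by 0.39 on the log2 scale with leukemic sEVs. A change as far from 0 was found in 20.4% of all tested genes. The call was kept in 4 of 7 fits that each left out 1 library, and the count of called genes changed with the fit.

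CD8+ T cells were sorted by FACS from the spleens of healthy Foxp3 YFP/cre mice, a reporter strain whose regulatory T cells carry YFP and Cre, and were kept for 48 h with sEVs at 100 µg/ml. Control cells, 4 libraries, received HCME-sEVs, isolated from the splenic microenvironment of healthy mice. The compared cells, 3 libraries, received LME-sEVs from the leukemia microenvironment of Eμ-TCL1 mice, in which the Eμ enhancer drives the human TCL1 oncogene in B cells and a disease resembling chronic lymphocytic leukemia follows. All 7 libraries are thus from sEV-treated cells, and none is from cells without sEVs. The dose of 100 µg/ml is the one that the labels give for both groups. The study's methods instead say that the amount of sEVs followed that found in each kind of spleen, which was greater in leukemia. Whether the dose differed between these groups is therefore not settled. The study's methods describe culture of CD8+ T cells in wells coated with anti-CD3, with IL2 and CD28 in the medium, and young adult mice unless stated otherwise. The labels repeat neither for these libraries and do not state whether libraries came from separate animals, so p-values measure only the spread between these samples, which may be technical. The study's own legend gives the group sizes the other way round, and the labels were followed here. For CD8+ T cells in culture, the study's methods name isolation by negative selection, and the reporter strain for isolating regulatory T cells. Isolation and strain are thus described differently there, and how these cells were isolated was not settled.

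p53, encoded by Trp53, is a transcription factor that is held at a low level by the ubiquitin ligase Mdm2 and is stabilized by DNA damage, oncogene activity, nucleolar stress and other insults. Its activity is read largely from its targets, since the protein is controlled mainly after translation and the mRNA of Trp53 is a poor guide to it. Some targets stop the cell cycle, with p21 (Cdkn1a) as the best known, others promote apoptosis, such as Puma (Bbc3), and others, such as Mdm2, feed back on p53. In T cells, p53 limits proliferation and survival after activation, and p21 restrains repeated rounds of division.

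The libraries were made from transcript 3′ ends, and reads of 1 original molecule were collapsed by molecular identifiers, so a count is close to 1 transcript end and gene length does not enter a comparison of levels between genes. The total ran from 3689831 to 5030522 counts per library, and every pair of libraries within a group differed by more than counting noise (chi-square per degree of freedom from 2.12 to 6.13). Levels are given in CPM, a gene's counts scaled to a common library size after TMM normalization. A count of 3, taken as the limit of detection, corresponded to 0.580 to 0.804 CPM. The 8 CD8 T-cell markers summed to 2685 to 2780 CPM with HCME-sEVs and 2823 to 3125 CPM with LME-sEVs, which do not overlap; Cd3e and Cd3g passed the FDR threshold. The 3 CD4 T-cell markers reached at most 1.60 CPM and the 3 NK-cell markers at most 2.16 CPM, with Cd4, Foxp3, Ncr1 and Klra8 at 3 counts or fewer in every library. The 8 B-cell markers summed to 10.05 to 12.5 CPM over both groups. The 8 myeloid markers summed to 3.94 to 5.76 CPM with HCME-sEVs and 7.51 to 8.96 CPM with LME-sEVs, without overlap. The 6 basophil and mast-cell markers ran from 5.52 to 31.6 and from 21.1 to 39.2 CPM, in that order, with Prg2 at most 0.53 CPM in HCME-sEV and 4.06 to 9.18 CPM in LME-sEV libraries. The 6 erythroid markers ran from 32.9 to 42.3 and from 34.0 to 49.5 CPM. The CD8 T-cell and myeloid sums moved with the groups, as did Prg2, while the basophil and mast-cell and erythroid sums overlapped. By edgeR Mcpt8 (log2 fold change 1.43, FDR 0.0341) and the globin gene Hba-a1 (0.90, FDR 0.0486) rose and Cpa3 did not pass (-0.26, FDR 0.721). The part of these markers in the results was not tested, and in such bulk libraries fewer cells of a type and less RNA per cell cannot be told apart.

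Matches to the p53 decamer consensus were looked for in RefSeq promoter windows of build GRCm38.p6, from 250 bases before to 50 after a transcript start. The consensus is 10 bases long: 3 purines, C, 2 bases that are A or T, G and 3 pyrimidines. As a pattern it reads the same on both strands, though a single match need not. A full response element holds 2 such decamers. The table held 12 windows for 8 of the 10 genes. Trp53inp1 and Zmat3 are not in it. At least 1 decamer was present for 5 of these 8 genes (62.5%), against 2582 of all 27025 genes (9.55%). By window it was 6 of 12 (50%) against 2745 of 32851 (8.36%). The genes were listed as p53 or its known targets, so the higher share is not a finding independent of that choice. The part of each promoter around the match is shown for 4 of the 5 genes with a decamer. These were picked as p53 itself, its main inhibitor and the 2 members with the highest counts. Decamers are in capitals and each strand is as transcribed.
Cdkn1a, chr17:29090881-29090940 (+): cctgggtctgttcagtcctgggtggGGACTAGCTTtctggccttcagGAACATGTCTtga
Mdm2, chr10:117710910-117710969 (-): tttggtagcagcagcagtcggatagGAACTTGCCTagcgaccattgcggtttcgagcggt
Ccng1, chr11:40755437-40755496 (-): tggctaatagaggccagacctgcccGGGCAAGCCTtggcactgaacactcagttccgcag
Trp53, chr11:69580259-69580318 (+): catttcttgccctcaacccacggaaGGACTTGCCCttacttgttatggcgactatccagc
The Cdkn1a window was the only one among the 12 with 2 decamers at most 13 bases apart, 73 and 51 bases before the start with 12 bases between them. Such a pair was present in 24 of all 32851 windows (0.0731%). Only exact matches were counted. In the Cdkn1a window the 10 bases right after GAACATGTCT, tgacatgttc, depart from the consensus at 1 base and so were not counted. The single decamers lay 186 bases before the start for Mdm2, 185 for Ccng1 and 75 for Trp53. Aen also held 1, at chr7:78895937-78895946. No match was found in the windows of Phlda3, Sesn2 and Bbc3, nor in the second window of Cdkn1a, which says only that these letters are not there. The promoter sequences are shown to identify the genes' upstream regions, and no binding was measured.

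**Figure D1:**
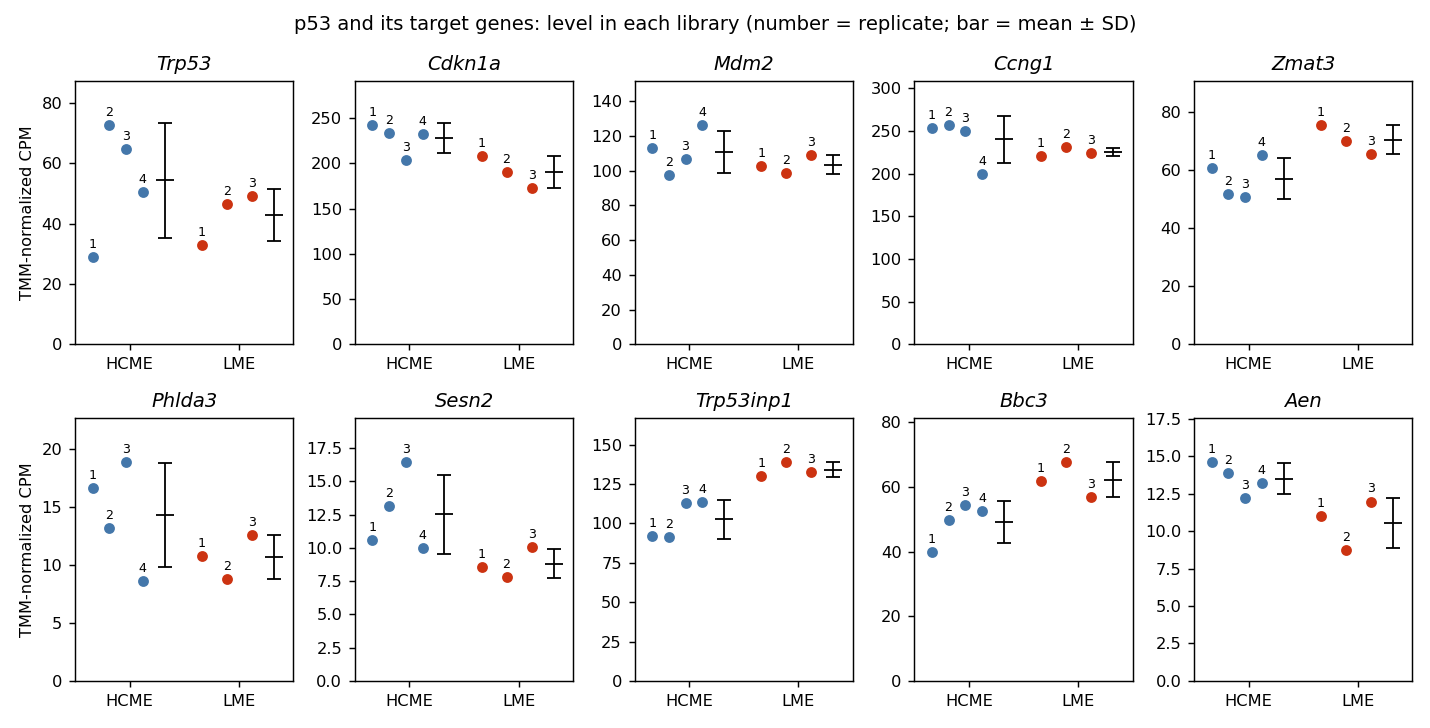
Level of each of the 10 genes in every library, in TMM-normalized CPM (vertical axes from 0, 1 scale per gene), with HCME-sEV libraries in blue and LME-sEV libraries in red. Digits are replicate numbers, and the black bar to the right of each group is its mean ± SD; Trp53inp1, Bbc3 and Zmat3 lie higher in all 3 LME-sEV libraries, Aen lies lower in all 3, and the other 6 genes overlap.

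Of the 10 genes, 1 was called at an FDR under 0.05 (10%), beside 8.96% of all 12623 tested genes. The call was in the higher direction, beside 3.75% of all genes, and none was in the lower direction, beside 5.21%. None passed the study's cutoff for a differentially expressed gene, an FDR under 0.05 with a log2 fold change beyond 1, which 1.28% of all genes passed. At an unadjusted p under 0.05 in the same edgeR quasi-likelihood test, there were 5 of the 10, 3 higher and 2 lower, and 2864 of all 12623 genes. Between the groups 4 of the 10 did not overlap, beside 20.3% of all genes, with 3 higher in LME-sEV libraries (9.49% of all genes) and 1 lower (10.8% of all genes). The median log2 fold change was -0.18 over the 10 genes, which ranged from -0.49 to 0.39, and 0.0096 over all tested genes. In this main fit the share called was close to the background. There were 3 genes above 0 and 7 below, beside 6497 above and 6126 below among all tested genes. A fit with a replicate block called 5 of the 10, and its count over all genes is given in the closing part. Without HCME-sEV replicate 2, LME-sEV replicate 2 or LME-sEV replicate 3 the count of called genes was 0, without HCME-sEV replicate 1 or 4 it was 2, and without HCME-sEV replicate 3 it was 3.

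**Figure D2:**
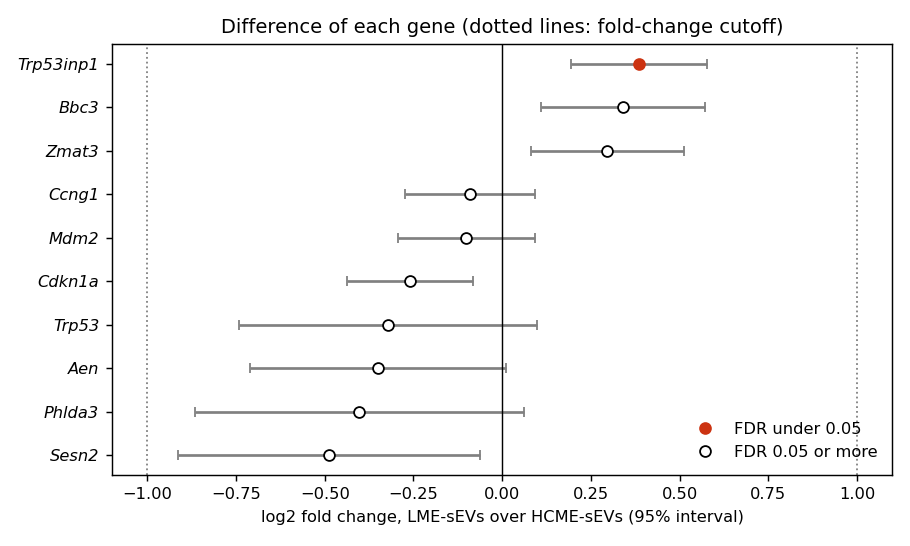
Log2 fold change of each gene, LME-sEVs over HCME-sEVs, with its 95% interval from edgeR (horizontal axis), sorted by value. The filled red point, Trp53inp1 at 0.39, passed an FDR of 0.05; open points did not, and no gene reaches the dotted lines at a log2 fold change of -1 or 1.

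Trp53 itself, on chromosome 11 (chr11:69580359-69591873, + strand, GRCm38), encodes p53. Its level was 29.1, 72.7, 64.9 and 50.6 CPM in HCME-sEV replicates 1 to 4 and 33.0, 46.4 and 49.3 CPM in LME-sEV replicates 1 to 3. The control libraries alone spanned more than the LME-sEV libraries, with replicate 1 lowest in both groups, and the groups overlap. The coefficient of variation among controls was 35.3%, where counting error alone gives 6.78%, and it was 20.3% against 7.16% among LME-sEV libraries. The means were 54.3 ± 19.2 (SD, n = 4) and 42.9 ± 8.69 CPM (SD, n = 3). In the edgeR test the log2 fold change was -0.32 (SE 0.20, 95% interval -0.74 to 0.097, FDR 0.366), so a change of Trp53 mRNA was not detectable at this spread, and the interval spans a fold between 0.598 and 1.07. This depended on 1 library: without HCME-sEV replicate 1, Trp53 came to -0.53 with an FDR of 0.0177 by edgeR. That was the only call in 7 edgeR fits that each left out 1 library. Over these 7 fits the log2 fold change ran from -0.53 to -0.15 and the FDR reached 0.748.

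Mdm2 (chr10:117688875-117710758, - strand) encodes the ubiquitin ligase that marks p53 for degradation and is itself a p53 target. It stood at 113, 97.7, 107 and 126 CPM with HCME-sEVs and 103, 98.6 and 109 CPM with LME-sEVs. All 3 LME-sEV libraries fall inside the range of the controls. Means were 111 ± 12.0 (SD, n = 4) and 103 ± 5.36 CPM (SD, n = 3), and edgeR gave a log2 fold change of -0.10 (SE 0.093, 95% interval -0.29 to 0.092, FDR 0.565). Mdm2 varied far less between control libraries than Trp53 did, with a coefficient of variation of 10.8%.

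Cdkn1a (chr17:29090976-29100727, + strand) encodes p21, the inhibitor of cyclin-dependent kinases that carries out p53-dependent arrest. It was among the most abundant of the 10, and 7.03% of all tested genes had a higher mean. The control libraries gave 243, 233, 203 and 233 CPM, and the LME-sEV libraries gave 208, 191 and 173 CPM. All LME-sEV values but 1 lie below the lowest control, replicate 3, and LME-sEV replicate 1 lies above it. Means were 228 ± 17.0 (SD, n = 4) and 191 ± 17.6 CPM (SD, n = 3), a fitted difference of -0.26 (SE 0.085, 95% interval -0.44 to -0.083) that missed the threshold by edgeR (FDR 0.0615). Over the 35 ways of dividing the 7 libraries, an exact permutation test (two-sided) gave p = 0.0857, with 0.0286 as the smallest p the design allows. Without HCME-sEV replicate 3 the FDR by edgeR was 0.0209 (log2 fold change -0.31), the only call in 7 fits that each left out 1 library. The FDR reached 0.304 in another of these edgeR fits. A transcript annotated on the opposite strand, AC167363.2, overlaps Cdkn1a, and the strand setting of the counting is not given in the sources used here.

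Ccng1 (chr11:40748552-40755311, - strand) encodes cyclin G1, a partner of a protein phosphatase in the Mdm2 feedback loop. Its counts were the highest of the 10, at 254, 257, 250.4 and 199 CPM with HCME-sEVs and 221, 231 and 224 CPM with LME-sEVs. HCME-sEV replicate 4 was lower than every other library, and the LME-sEV libraries sit between it and the remaining controls. The means, 240.2 ± 27.4 (SD, n = 4) and 225 ± 5.09 CPM (SD, n = 3), differed by a fitted -0.09 (SE 0.088, 95% interval -0.27 to 0.092, edgeR FDR 0.588).

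Sesn2 (chr4:132492032-132510501, - strand) encodes sestrin 2, a stress protein that restrains mTORC1. It was the least abundant of the 10, with 10.6, 13.1, 16.5 and 9.98 CPM in the controls and 8.58, 7.84 and 10.05 CPM in the LME-sEV libraries. The groups overlap by a single pair of libraries, LME-sEV replicate 3 and HCME-sEV replicate 4. Its log2 fold change of -0.49 was the farthest from 0 among the 10 (SE 0.20, 95% interval -0.91 to -0.063, edgeR FDR 0.152), yet 13.8% of all tested genes lay as far from 0 or farther. Means were 12.5 ± 2.96 (SD, n = 4) and 8.82 ± 1.12 CPM (SD, n = 3). Counting error alone gives a coefficient of variation of 14.1% at the control level, so precision is limited by depth here more than for the abundant members.

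Trp53inp1 (chr4:11156431-11174379, + strand) encodes a stress-induced nuclear and autophagy protein that supports the pro-apoptotic branch of p53. It measured 92.2, 91.7, 113 and 114 CPM with HCME-sEVs and 130.3, 139 and 133 CPM with LME-sEVs. All 3 LME-sEV libraries lie above every control, and the controls fall into 2 low and 2 higher libraries. The mean rose from 103 ± 12.4 (SD, n = 4) to 134 ± 4.65 CPM (SD, n = 3). The fold was 1.31 (95% interval 1.14 to 1.49), a log2 fold change of 0.39 (SE 0.092, 95% interval 0.19 to 0.58, edgeR FDR 0.0122), and the exact permutation test gave p = 0.0286, the smallest it can give. A log2 fold change as far from 0 was found in 20.4% of all tested genes. The call was lost when HCME-sEV replicate 2 (FDR 0.0531), LME-sEV replicate 2 (FDR 0.0798) or LME-sEV replicate 3 (FDR 0.0512) was left out of the edgeR fit, with the log2 fold change between 0.34 and 0.44 over all 7 such fits.

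Bbc3 (chr7:16308393-16318205, + strand) encodes Puma, a BH3-only protein that triggers mitochondrial apoptosis and is a main killer of lymphocytes downstream of p53, though it is also induced without p53. Its values were 39.9, 49.8, 54.5 and 52.7 CPM with HCME-sEVs and 61.9, 67.9 and 57.0 CPM with LME-sEVs. The groups do not overlap, and HCME-sEV replicate 1 is the lowest of all. Means of 49.2 ± 6.52 (SD, n = 4) and 62.3 ± 5.44 CPM (SD, n = 3) gave a log2 fold change of 0.34 (SE 0.11, 95% interval 0.11 to 0.57) that did not pass by edgeR (FDR 0.0604), and the exact permutation p was 0.0571. The edgeR FDR was 0.0341 without HCME-sEV replicate 3, the only call in 7 fits that each left out 1 library, and reached 0.268 in another.

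Aen (chr7:78895854-78911209, + strand) encodes an apoptosis-enhancing nuclease that promotes cell death by digesting nucleic acids. The controls had 14.6, 13.9, 12.2 and 13.2 CPM, and the LME-sEV libraries had 10.99, 8.74 and 12.0 CPM. All LME-sEV values lie below all controls, the nearest pair being only 12.0 and 12.2 CPM. The means were 13.5 ± 1.03 (SD, n = 4) and 10.6 ± 1.66 CPM (SD, n = 3). The log2 fold change of -0.35 (SE 0.17, 95% interval -0.71 to 0.011) did not pass by edgeR (FDR 0.237), while the exact permutation test, unadjusted, gave its smallest p of 0.0286.

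Phlda3 (chr1:135766119-135769136, + strand) encodes a small PH-domain protein that competes with Akt for membrane lipids and so lowers survival signalling. It was measured at 16.6, 13.1, 18.9 and 8.58 CPM with HCME-sEVs and 10.7, 8.74 and 12.6 CPM with LME-sEVs. The control libraries alone cover the whole range, with replicate 4 the lowest of the 7. Means of 14.3 ± 4.48 (SD, n = 4) and 10.7 ± 1.91 CPM (SD, n = 3) correspond to a log2 fold change of -0.40 (SE 0.22, 95% interval -0.87 to 0.061, edgeR FDR 0.298).

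Zmat3 (chr3:32334792-32366014, - strand) encodes an RNA-binding zinc finger protein that regulates splicing and mRNA stability downstream of p53. It was at 60.8, 51.8, 50.8 and 65.2 CPM in control libraries and 75.6, 70.1 and 65.7 CPM in LME-sEV libraries. The groups do not overlap, although HCME-sEV replicate 4 and LME-sEV replicate 3 almost meet. The mean was 57.1 ± 7.01 (SD, n = 4) against 70.5 ± 4.97 CPM (SD, n = 3), with a log2 fold change of 0.30 (SE 0.10, 95% interval 0.080 to 0.51). It missed the threshold by edgeR (FDR 0.0825), with an exact permutation p of 0.0571. Without HCME-sEV replicate 4 the edgeR FDR was 0.0448, the only call in 7 fits that each left out 1 library, and it reached 0.236 in another.

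**Figure D3:**
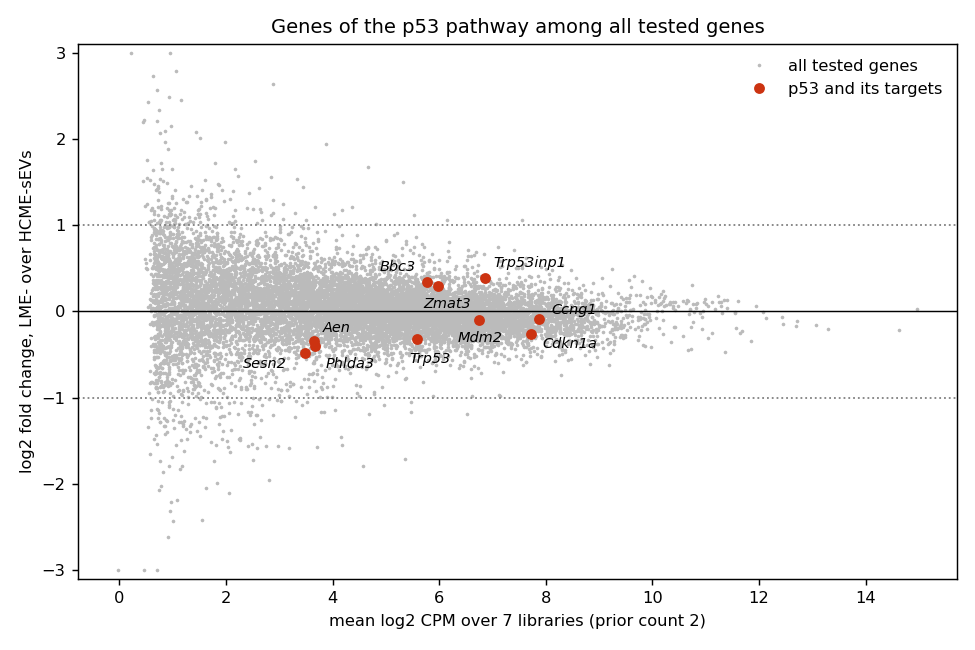
Log2 fold change of every tested gene, LME-sEVs over HCME-sEVs (vertical axis), against its mean log2 CPM over the 7 libraries (horizontal axis); grey points are the 12623 tested genes, red points the 10 genes. The red points lie within -0.49 and 0.39, inside the cloud of genes of similar abundance and inside the dotted lines at -1 and 1; 5 grey points beyond -3 or 3 are drawn at the edge.

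The order of the 10 genes by mean CPM was the same in both groups apart from 2 neighbouring pairs, Mdm2 with Trp53inp1 and Trp53 with Bbc3. Ccng1 and Cdkn1a led, with overlapping ranges in the controls (199 to 257 and 203 to 243 CPM) and separate ones with LME-sEVs (221 to 231 and 173 to 208 CPM). Mdm2 and Trp53inp1 followed, and overlapped in the controls, at 97.7 to 126 and 91.7 to 114 CPM. In the LME-sEV libraries Trp53inp1 (130.3 to 139 CPM) lay above Mdm2 (98.6 to 109 CPM) throughout. Zmat3, Bbc3 and Trp53 formed a middle group, in which the ranges of Trp53 and Bbc3 overlap in the controls and separate with LME-sEVs (33.0 to 49.3 and 57.0 to 67.9 CPM). Phlda3, Aen and Sesn2 were lowest and overlapped with one another in each group. They lie below the median of tested genes, since 60.9%, 61.6% and 63.7% of genes had a higher mean.

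Ratios of pairs of the 10 genes within a library were chosen after the values were seen, and so are given with no test. The log2 ratio of Bbc3 to Cdkn1a counts ran from -2.61 to -1.90 in HCME-sEV libraries and from -1.75 to -1.49 in LME-sEV libraries, a difference in means of 0.61. For Trp53inp1 over Cdkn1a it ran from -1.40 to -0.84 and from -0.68 to -0.38, a difference of 0.65. Both ratios were higher in all 3 LME-sEV libraries, and ratios do not depend on the scaling between libraries. Aen over Cdkn1a ran from -4.14 to -4.05 in controls and from -4.45 to -3.85 with LME-sEVs, a difference of -0.10 with overlapping groups. The log2 ratio of Mdm2 to Trp53 ran from 0.43 to 1.96 in controls and from 1.09 to 1.64 with LME-sEVs, so all LME-sEV libraries fall within the control range.

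**Figure D4:**
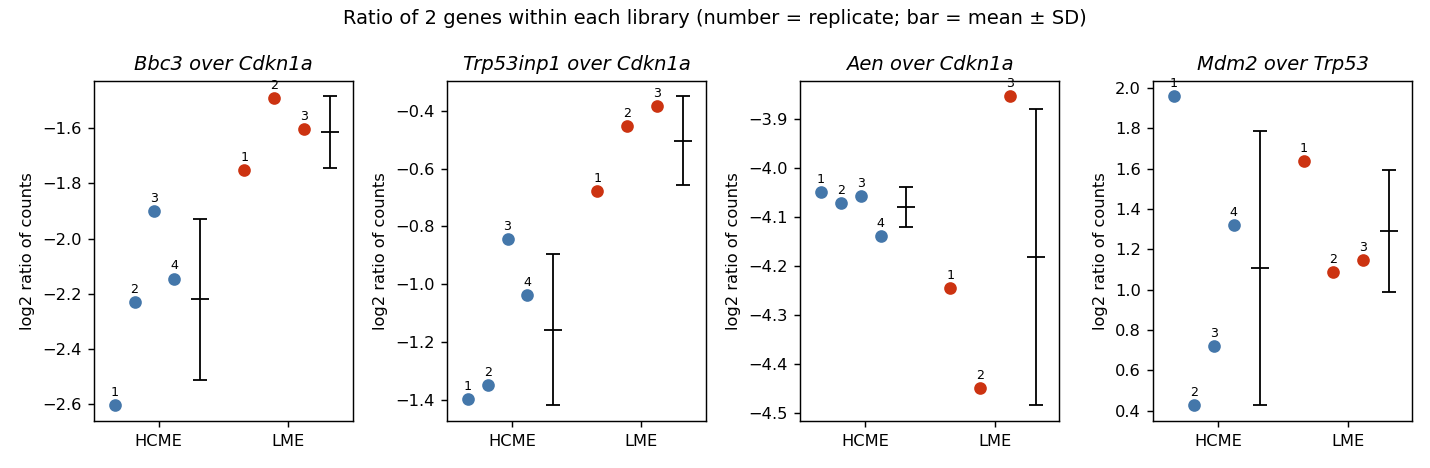
Log2 ratio of the counts of 2 genes in the same library (vertical axes, 1 scale per panel, not from 0), for HCME-sEV (blue) and LME-sEV (red) libraries, with replicate numbers and the mean ± SD to the right of each group. Bbc3 over Cdkn1a and Trp53inp1 over Cdkn1a lie higher in every LME-sEV library, and Aen over Cdkn1a and Mdm2 over Trp53 overlap.

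Among 48 other p53 targets, 44 were tested and 5 were called by edgeR (11.4%, beside 8.96% of all genes), 3 higher and 2 lower. The 4 that were not tested, Eda2r, Gdf15, Spata18 and Igfbp3, had at most 5 counts in any library. Btg2, an antiproliferative gene that slows entry into S phase, rose from 67.0 to 91.5 CPM in controls to 108 to 127 CPM (log2 fold change 0.59, SE 0.10, FDR 0.00104), and its FDR stayed under 0.05 whichever single library was left out. Ddb2, a sensor of UV-damaged DNA, rose by 0.49 on the log2 scale (SE 0.14, FDR 0.0364), from 16.0 to 20.7 CPM in controls to 21.4 to 29.0 CPM. Dgka, a kinase that converts diacylglycerol and dampens T-cell receptor signalling, rose from 93.3 to 130.2 CPM in controls to 131 to 157 CPM (log2 fold change 0.33, SE 0.10, FDR 0.0417).

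Of the targets that fell, Ak1, an adenylate kinase, went from 3.19 to 4.56 CPM in controls to 1.16 to 2.02 CPM (log2 fold change -1.24, SE 0.38, FDR 0.0441), on 6 to 9 counts per LME-sEV library. The calls of Ddb2, Dgka and Ak1 were lost in several alternative fits. With all libraries in, Ddb2 missed the threshold with DESeq2 (FDR 0.083), and Ak1 with library size alone (FDR 0.0533) and with no filter on low counts (FDR 0.0589) in edgeR. Ddb2 kept its call in 2 of 7 fits with 1 library left out (FDR up to 0.217), Dgka in 3 (FDR up to 0.223) and Ak1 in 1 (FDR up to 0.2004), each highest without LME-sEV replicate 3. Ddb2 and Dgka overlap Acp2 and Pmel, respectively, on the opposite strand.

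Neither of the 2 most abundant uncalled targets passed. Rps27l, a ribosomal protein S27 paralog that also regulates Mdm2, had a log2 fold change of -0.21 (SE 0.090, FDR 0.167), and Ddit4, an inhibitor of mTORC1, had 0.22 (SE 0.091, FDR 0.152). The median over the 44 targets was 0.061, with 25 above and 19 below 0. At an unadjusted p under 0.05 by edgeR there were 15, of which 10 were higher and 5 lower, beside 1316 higher and 1548 lower of all 12623 genes.

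**Figure D5:**
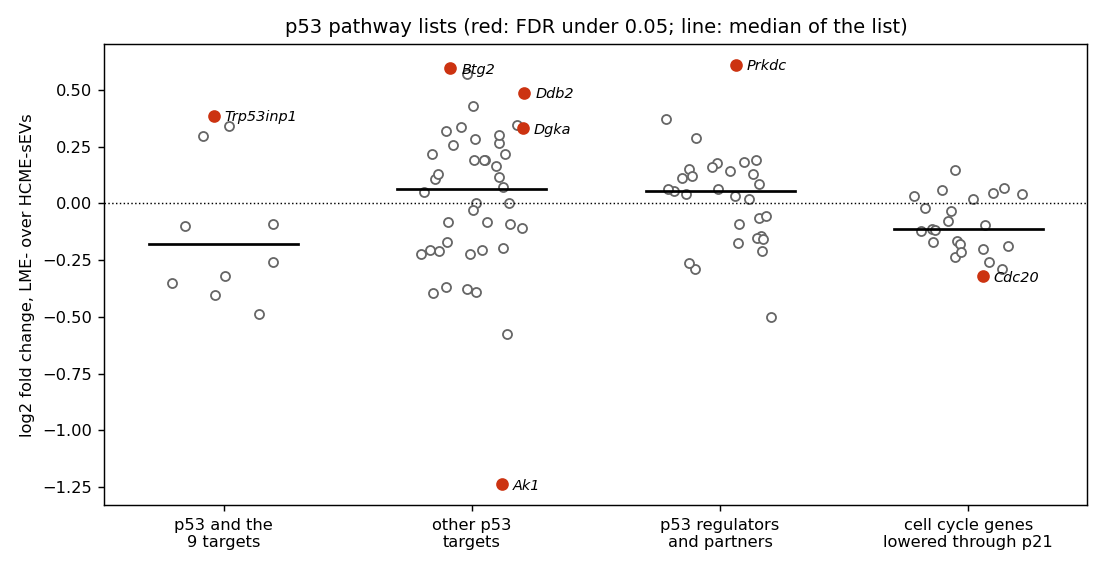
Log2 fold change, LME-sEVs over HCME-sEVs (vertical axis), of the tested genes in 4 lists: p53 and its 9 targets, 44 other targets, 31 regulators and partners, and 24 cell cycle genes lowered through p21. Each point is 1 gene, spread sideways only for legibility, with genes at an FDR under 0.05 filled red and named; 2 called genes are not drawn. The black line is the median over all tested genes of the list, from -0.18 to 0.061.

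Of 31 regulators and partners of p53, all were tested and 2 were called (6.45%, beside 8.96% of all genes), 1 higher and 1 lower. Prkdc, the catalytic subunit of the DNA-dependent protein kinase that acts in DNA end joining and can phosphorylate p53, rose from 13.7 to 19.3 CPM in controls to 23.8 to 29.1 CPM (log2 fold change 0.61, SE 0.14, edgeR FDR 0.0114), with an FDR of 0.0902 without LME-sEV replicate 2. The most abundant uncalled regulators were Rpl11 (log2 fold change 0.14, FDR 0.263) and Rpl5 (0.16, FDR 0.256), ribosomal proteins that bind and inhibit Mdm2 when ribosome assembly is disturbed. Both share a near-identical 3′ end with other annotated genes, 8 for Rpl11 and 5 for Rpl5, so their counts are uncertain. The median of the list was 0.052. Of the 2 family members, Trp63 was tested (log2 fold change -0.22, SE 0.33, FDR 0.759, at 2.53 to 5.85 CPM), and Trp73, at 0 to 9 counts, was not.

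Cell cycle genes that p21 lowers through the DREAM and RB repressors numbered 24, all tested, of which 1 was called (4.17%, beside 8.96% of all genes). Cdc20, an activator of the anaphase-promoting complex, fell from 166 to 177 CPM in controls to 128 to 149 CPM (log2 fold change -0.32, SE 0.079, edgeR FDR 0.0144); its FDR was 0.0900 without LME-sEV replicate 1 and 0.0773 without LME-sEV replicate 3. Cdc20 overlaps Elovl1 on the opposite strand. The list's median was -0.12 against 0.0096 for all genes, with 17 of 24 below 0, beside 6126 of all 12623 genes, and at an unadjusted p under 0.05 by edgeR there were 7 lower and 0 higher, beside 1548 lower and 1316 higher of all genes. The most abundant of the list, the topoisomerase Top2a, was at 1671 to 1842 CPM in controls and 1509 to 1674 CPM with LME-sEVs (log2 fold change -0.18, SE 0.074, FDR 0.142). The survivin gene Birc5 was at 394 to 538 and 376 to 452 CPM (log2 fold change -0.17, SE 0.097, FDR 0.322). Cdkn1a, the upstream inhibitor of these genes, had a negative log2 fold change as well, and neither it nor 23 of the 24 passed the threshold.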

How the data were processed

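Mouse CD8+ T cells treated in culture with HCME-sEVs (4 libraries) or LME-sEVs (3 libraries) were profiled with the QuantSeq 3′ FWD kit with molecular identifiers. The authors deposited raw counts per gene symbol, after trimming with cutadapt 2.10, mapping to GRCm38 with STAR 2.5.3a, collapsing with UMI-tools 1.0.0 and counting with featureCounts of Subread 2.0.0. The annotation release and strand setting are not given in the sources used here.

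From these counts, genes with a mean of at least 5 per library were kept, TMM factors were computed (0.966 to 1.03), and the quasi-likelihood test of edgeR 4.0.16 (limma 3.58.1, R 4.3.3) was fitted to all 7 libraries, with Benjamini-Hochberg adjustment over all 12623 genes. CPM values use TMM-scaled library sizes. Single genes were also compared by a two-sided exact permutation test of log2 CPM (prior count 2). The code was tested on simulated data. Positions come from GENCODE vM21, promoters from RefSeq. Near-identical 3′ ends were sought with BLAST 2.17.0 (at least 95% identity over 200 of the last 300 bases). Figures were drawn with matplotlib 3.10.9.

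The 10 genes and all gene lists were chosen with earlier results of these data known. Named from the other lists were genes with an FDR under 0.05, at most 8 per list, and the 2 most abundant uncalled genes; 2 genes that this rule names are not reported here, though counts and medians include them. Alternatives were other scalings, filters, DESeq2 1.42.0, limma-voom, a replicate block and leaving out each library. The replicate numbers 1 to 3 occur in both groups, and nothing in the labels says that they mark shared animals or days.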

Additional observations from a re-analysis of the deposited data

Results flagged for a closer look

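HCME-sEV replicate 4 had less Ccng1, at 199 CPM, than the other 3 control libraries, at 250.4 to 257 CPM. Its gap to the nearest of them was 0.884 of the range of the group, above Dixon's 95% critical value for 4 libraries. It was the only 1 of 25 gene levels examined in the controls to stand apart in this way, where chance alone gives about 1.25. Without that library, the log2 fold change of Ccng1 was -0.17 with an FDR of 0.199 by edgeR.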

How the results depend on the processing

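Over 16 alternatives, no named gene changed its direction. Trp53inp1 kept its call in all 9 that changed the scaling, filter, method or block, and in 4 of 7 that left 1 library out. The count of called genes among the 10 was 1 in the main analysis, 2 with upper-quartile scaling (Bbc3 added), 3 with library size alone (Bbc3 and Zmat3 added) and 2 without the filter on low counts (Bbc3 added), and 0 to 3 when a single library was left out. The share of all genes called is not set beside each of these counts. They are therefore not read as a result about the 10 genes. For other p53 targets it was 3 with DESeq2, which gave no adjusted p for Ak1 and an FDR of 0.083 for Ddb2, and 1 to 5 with a library left out; 3 were called without HCME-sEV replicate 1 or 2, 2 without LME-sEV replicate 2 and 1 without LME-sEV replicate 3. For regulators and partners it was 1 to 4 (4 without HCME-sEV replicate 1, 1 without LME-sEV replicate 2), and for cell cycle genes 2 with DESeq2 and 0 to 2 with a library left out (0 without LME-sEV replicate 1 or 3, 2 without HCME-sEV replicate 3). Among all genes 1131 were called in the main analysis and 393 to 1293 with a library left out (393 without LME-sEV replicate 2, 461 without LME-sEV replicate 3, 715 without HCME-sEV replicate 2). Leaving out both replicates numbered 1, chosen after seeing the data because Trp53 was lowest there, gave 1 called among the 10, 1 among regulators and 0 among cell cycle genes. Fewer libraries enter these fits; the cause of the other differences was not tested. With library size alone, 612 genes were higher and 465 lower (56.8% higher), against 41.8% higher with TMM, and 1 of the 10 genes rather than 2 had an exact permutation p under 0.05. That scaling moved the median of all genes to 0.055.

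With a replicate block, 5 of the 10 genes were called, 3 higher (Trp53inp1, Zmat3 and Bbc3) and 2 lower (Cdkn1a, FDR 0.0333, and Phlda3, FDR 0.0292, by edgeR), as were 7 other targets, 3 regulators, 2 cell cycle genes and 1454 of all 12623 genes. HCME-sEV replicate 4 has no LME-sEV library of its number, so in the block fit it adds nothing to the difference between groups. Leaving out that library with no block gave 2 called among the 10. The block and the loss of that library were not told apart. Ddb2 (FDR 0.0658) and Ak1 (FDR 0.0818) were not called in the block fit. Deviations of same-numbered libraries correlated at 0.0721, 0.155 and 0.0268 across genes, and 2 of the 3 LME-sEV libraries correlated best with another number. The study's methods name no block, and the main fit used none. The count among the 10 depends on that choice. Correlations of this size over 3 pairs cannot show whether same-numbered libraries were paired, and the labels do not say, so a pairing was not settled.

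Depth limits the low genes, Ak1, Trp63, Sesn2, Phlda3 and Aen among them, and 4 against 3 libraries allow no exact permutation p under 0.0286.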
